A study of Mus musculus with 48 samples.

Results

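The mRNAs of 67 cytosolic ribosomal protein genes were followed in mouse embryonic stem cells after transcription was blocked. Members were genes whose mouse symbol matches a pattern of names for proteins of the large (Rpl) or small (Rps) cytosolic subunit and which were listed in all 12 libraries of total RNA. The pattern misses names of another form, such as Rps3a1, and takes in 3 annotated pseudogenes (Rpl6l, Rpl32l and Rps4l), so the family is not complete. Of 84 matching symbols, 67 met this rule, 43 of the large and 24 of the small subunit, among 12762 genes listed in all 12 total libraries. The cells were E14TG2a, a line of mouse embryonic stem cells, grown in medium with 2 kinase inhibitors and LIF, and every library came from cells treated with 1 µM flavopiridol, an inhibitor of the CDK9 kinase that RNA polymerase II needs to elongate. Polyadenylated RNA was sequenced from whole cells (total) and from the nucleus, cytosol and membrane fractions at 30, 60, 120 and 240 min, with 3 separately passaged cultures each, 48 libraries in all. Each value was a ratio to the 0 min level of the same gene and fraction, so 1 stands for no change, and it carries no expression level and no amount that could be set against another fraction. No untreated time course was part of the design, and the 0 min libraries were not analysed here.

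Ribosomal proteins are made in near equal numbers, and together with ribosomal RNA they form the subunit that reads the mRNA (small) and the subunit that joins amino acids (large). Their mRNAs are among the most abundant and longest-lived of growing cells and are known for a terminal oligopyrimidine start, a C followed by a run of pyrimidines, through which mTOR signalling controls their translation. Many of these genes have numerous pseudogene copies in mammalian genomes, and reads of near-identical copies can be split between them.

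The libraries listed between 15067 and 19501 genes, with no depth given, so no counting interval is stated. Of 7 stem cell markers, 6 were listed in all 12 total libraries (Esrrb in 9). Of 6 markers of other lineages T and Nes were also listed in all 12, Gata6 and Col1a1 in 9 and Sox17 and Alb in none, so listing alone does not tell the cell type. No 2 libraries were identical. Median ratios over all genes at 30 min lay between 0.555 and 0.972, and the lowest belonged to replicate 1 of the nucleus.

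To show where these mRNAs begin, the 15 bases before and the 15 after annotated starts are given for 3 members whose total RNA did not pass the slope test and for 4 that fell in every fraction. The sequences are from RefSeq (GRCm38.p6), 5′ to 3′ on the gene's strand, in lower case. Capitals mark the longest unbroken run of C and T that overlaps the 5 bases on either side of the start.
Rps6: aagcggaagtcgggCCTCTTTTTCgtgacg
Rpl35: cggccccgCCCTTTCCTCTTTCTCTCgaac
Rplp0: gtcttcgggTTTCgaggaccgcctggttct
Rps9: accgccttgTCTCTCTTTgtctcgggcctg
Rpl18: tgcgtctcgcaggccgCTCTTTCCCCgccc
Rpl28: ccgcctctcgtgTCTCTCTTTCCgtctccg
Rps28: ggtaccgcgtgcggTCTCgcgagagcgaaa
The first 3 windows are at chr4:86857353-86857382 (minus strand), chr2:39005117-39005146 (minus) and chr5:115559452-115559481 (plus). The others are at chr7:3704026-3704055 (plus), chr7:45718056-45718085 (plus), chr7:4792950-4792979 (plus) and chr17:33824548-33824577 (minus). Runs of 10 letters (Rps6) and 10 letters (Rpl18) were thus seen in a member that did not pass the test and in a member that fell, and runs of 4 letters in Rplp0 and Rps28. A run of at least 8 letters lay at the start in 34.0% of the 53 promoters of the 48 members in the table, against 9.38% of all 32851 promoters of the same length. Among members that were below the median member or low in any fraction (as defined below), 9 of 20 with a promoter had such a run, against 9 of 28 of the other members.

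Relative to the reference genes of the authors' scaling, the typical ribosomal protein mRNA kept most of its starting level. In total RNA the median over the 67 members was 0.994, 0.956 and 0.939 in the 3 libraries at 240 min, where the median gene was at 0.473, 0.506 and 0.468. At the same time the nuclear median was 0.768 ± 0.0152, the cytosolic median 0.884 ± 0.0128 and the membrane median 0.885 ± 0.0144 (mean ± SD of 3 libraries), against 0.348 ± 0.0226, 0.477 ± 0.0136 and 0.476 ± 0.0384 for the median gene. The lowest library of the members lay above the highest library of all genes in each fraction at this time. Libraries were scaled on long-lived reference genes, so a loss shared by all genes, of cells or of RNA per cell, does not show in these ratios. The reference genes are not named. Whether members were among them is not known, and a ratio near 1 would then be partly built in.

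**Figure D1:**
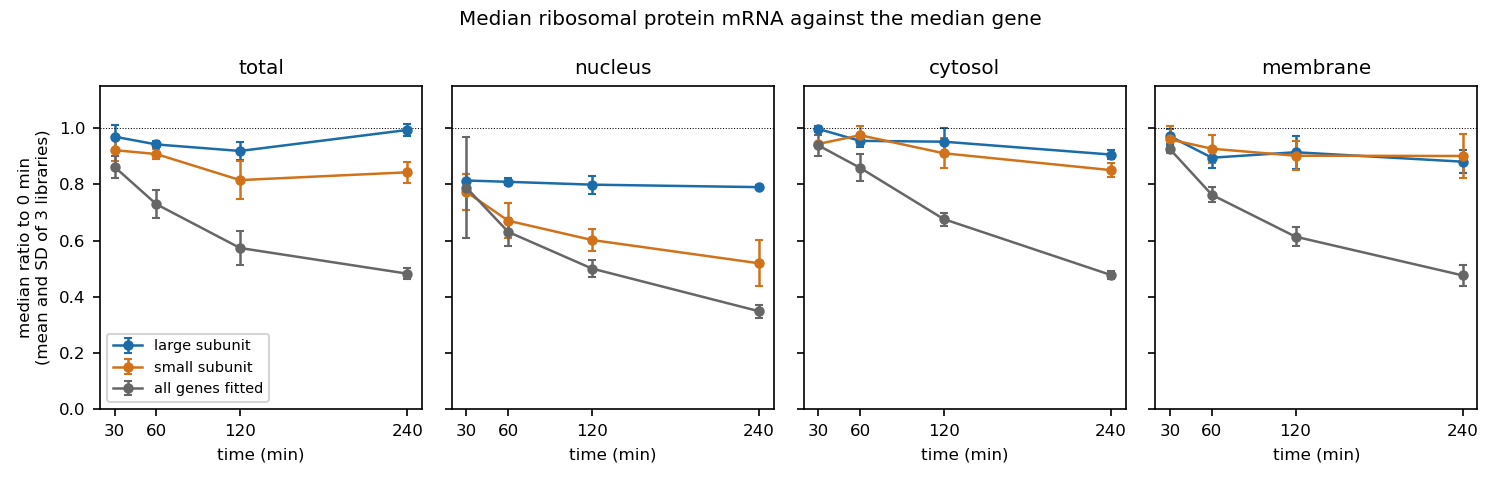
Median ratio to 0 min against time (min) in each fraction for large subunit members (blue), small subunit members (orange) and all genes fitted (grey), as the mean and SD of 3 library medians. At 240 min the large subunit median was 0.994 and the small subunit median 0.843 in total RNA, while all genes were at 0.482.

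The change with time was measured as the slope of the log2 ratio, in which -1 per hour means that the ratio fell to 50% each hour. The median slope of the members per hour was 0.01 ± 0.02 (total), -0.04 ± 0.02 (nucleus), -0.03 ± 0.004 (cytosol) and -0.03 ± 0.04 (membrane; SD over single replicate series), beside -0.22, -0.30, -0.28 and -0.26 for all genes fitted. Slopes within 0.1 of 0 were found for 74.6% of members in total RNA and 24.6% of all genes. With limma and a Benjamini-Hochberg adjusted p under 0.05, 8 of 67 members fell and 2 rose in total RNA, where 56.9% of all genes fell and 3.39% rose. The adjustment ran over all genes fitted, so its error rate of 0.05 need not hold among the members alone. Nuclear RNA gave 16 falling and 7 rising members of 65, beside 61.9% and 3.32% of all genes. For cytosolic RNA these were 20 and 5 of 65, beside 67.1% and 2.95%, and for membrane RNA 15 and 3 of 63, beside 62.2% and 4.09%. Leaving out a replicate, which leaves 8 of 12 libraries, moved some counts by more than 1.5 times. Without replicate 2 the count of rising members in total RNA was 0 and without replicate 3 it was 1. The count of falling members in nuclear RNA was 10 without replicate 2 and 9 without replicate 3, and in cytosolic RNA it was 12 without replicate 2. Rising members numbered 4, 2 and 1 in nuclear RNA and 2, 2 and 1 in cytosolic RNA without replicates 1, 2 and 3.

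These directions are relative to the long-lived reference genes on which the authors scaled the libraries. When each library was instead centred on the median gene, 4 members fell and 48 rose in total RNA, and the counts were 3 and 45 (nucleus), 6 and 49 (cytosol) and 4 and 44 (membrane). Over all genes, 3961 fell and 3672 rose of 12762 in total RNA, and 3897 and 3954 of 13343 in the nucleus. In the cytosol these were 3887 and 3520 of 11979 genes, and in membrane RNA 3837 and 3513 of 12408. Scaled to mRNAs encoded by mitochondrial DNA, 15 members fell and 0 rose in total RNA, and the counts were 2 and 4 (nucleus), 4 and 2 (cytosol) and 46 and 0 (membrane). Over all genes this scaling gave 8935 falling and 134 rising in total RNA, 2926 and 625 in the nucleus and 3539 and 408 in the cytosol. In membrane RNA 9343 of 12408 genes fell and 98 rose, so the members' 46 of 63 were near the share of all genes. The paper describes a slight mitochondrial contamination of its nuclear fraction, which was not examined here. Of the 67 members, 29 were called in no fraction with the deposited scaling, beside 15.8% of all genes fitted in total RNA.

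**Figure D2:**
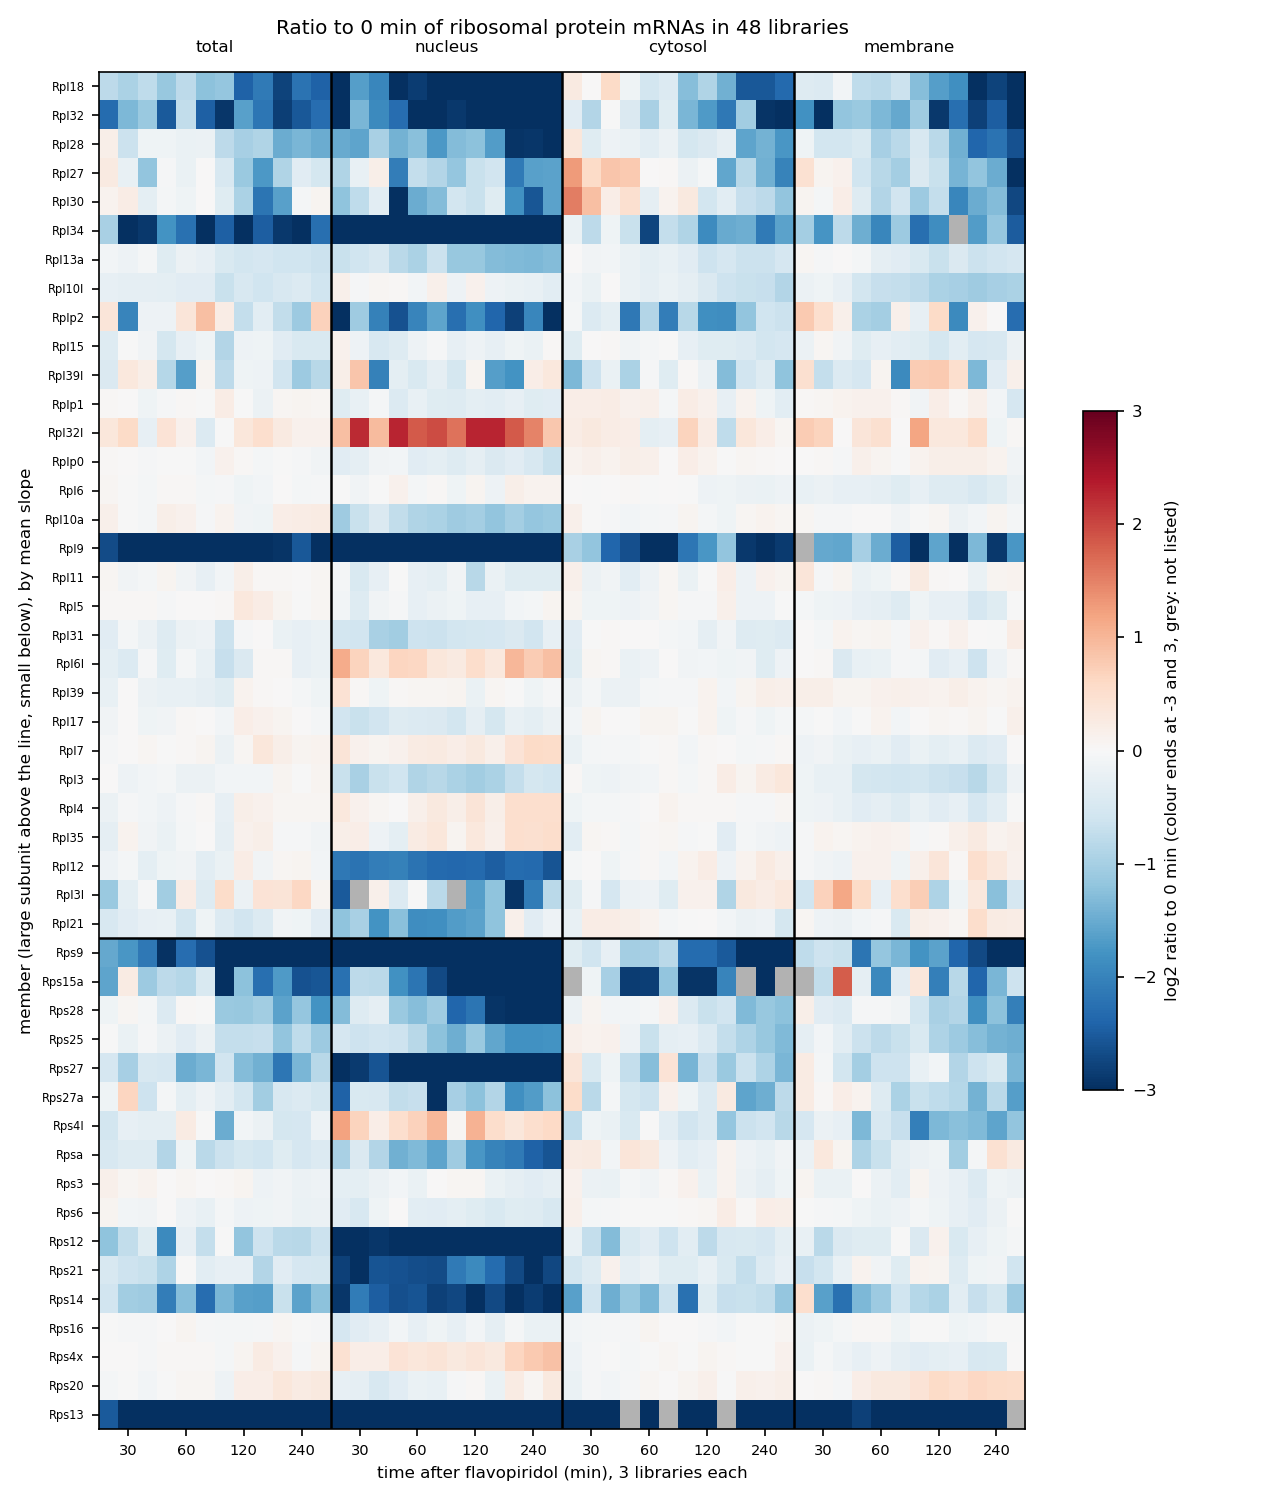
Log2 ratio to 0 min of 47 of the 67 members, those with a value or call given by name (rows, large subunit above the line, ordered by mean slope within each subunit) in the 48 libraries (columns, by fraction and time in min). Many rows stayed pale, Rps9, Rps13 and Rpl9 were dark blue in nearly all libraries of total RNA and nucleus, and Rpl12, Rps12 and Rps21 were blue in the nucleus but pale or nearly so elsewhere.

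The subunits were compared by their median slopes. The difference of median slopes, large minus small, was 0.001 ± 0.02 per hour for total, 0.05 ± 0.03 for nuclear, 0.02 ± 0.007 for cytosolic and -0.009 ± 0.02 for membrane RNA (SD over 3 replicate series, no test). The SD is that of differences within single series and is not centred on the pooled difference. In total and cytosolic RNA the pooled difference lay outside the range of the single series. The nuclear difference was 0.02 without replicate 2 and 0.08 without replicate 3, and the total difference 0.03 without replicate 1. The single series gave 0.002, 0.050 and 0.024 in total RNA and 0.037, 0.065 and 0.003 in nuclear RNA. In the cytosol the differences of the single series were 0.005, -0.009 and -0.002, so the sign was not the same in each, and the difference was -0.008 without replicate 1 and 0.03 without replicate 2, then larger than the nuclear one. In nuclear RNA at 240 min the large subunit median was 0.798, 0.790 and 0.782 and the small subunit median 0.425, 0.578 and 0.553, and the libraries did not overlap. Of the 24 small subunit members 11 were below 0.5 in all 3 nuclear libraries at that time, and of the 43 large subunit members 12, beside 54.0% of all genes.

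Within each subunit the nuclear median moved with the number of annotated coding transcripts, a split chosen after the data were seen, and its part in the difference between subunits was not tested. Among members with 1 annotated coding transcript, nuclear medians at 240 min were 0.832 ± 0.0335 for 17 large subunit genes and 0.911 ± 0.0255 for 10 small subunit genes. Among members with at least 2 coding transcripts they were 0.626 ± 0.0708 for 22 large and 0.120 ± 0.0231 for 13 small subunit genes.

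To find members that left the majority, the median member was subtracted from each library before the slope was fitted. In total RNA 9 members lay below the median member and 2 above it, beside 59.1% and 3.25% of all genes. The counts were 12 below and 7 above for the nucleus (59.8% and 3.75% of all genes), 13 and 14 for the cytosol (62.2% and 4.48%), and 11 and 3 for the membrane fraction (58.1% and 5.05%). Departing members numbered 7 and 6 in total RNA and 12 and 11 in nuclear RNA without replicates 2 and 3, and 16 in cytosolic RNA without replicate 3. Of the 67 members 31 departed in no fraction, 17 in 1 fraction and 19 in at least 2, beside 17.2%, 16.2% and 66.5% of all genes fitted in total RNA. Of the 19, 12 were below and 7 above in at least 2 fractions (61.8% and 3.64% of all genes), and none departed in opposite directions. The reference was the median of the members themselves, so these shares are a description. Below the median member in all 4 fractions were Rps9, Rpl18, Rps28, Rpl28, Rps25 and Rpl13a, and above it in all 4 was Rps20.

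Rps9, a small subunit protein involved in the accuracy of decoding (chr7:3703993-3706897, plus strand), had the lowest slope of the members fitted in total, nuclear and cytosolic RNA. In total RNA its ratios were 0.345, 0.297 and 0.227 at 30 min and 0.0392, 0.0479 and 0.0355 at 240 min. Nuclear ratios were 0.0567, 0.0718 and 0.0893 at 30 min and 0.00314, 0.00375 and 0.00733 at 240 min. Cytosolic ratios were 0.782, 0.662 and 0.846 at 30 min and 0.0684, 0.0866 and 0.0926 at 240 min. The first and last time did not overlap in any of these fractions. The slopes per hour were -0.76 ± 0.08 (total), -1.11 ± 0.12 (nucleus), -0.92 ± 0.07 (cytosol) and -0.79 ± 0.11 (membrane; all ± SE), with limma adjusted p from 1.12e-07 (cytosol) to 3.35e-05 (membrane).

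Rpl18, of the large subunit (chr7:45715457-45720836, plus strand), went from 1.20, 1.01 and 1.50 at 30 min to 0.172, 0.171 and 0.199 at 240 min in the cytosol. In the nucleus it was already at 0.114, 0.319 and 0.258 at 30 min and at 0.0581, 0.0395 and 0.0448 at 240 min. The cytosolic mRNA thus began at or above its starting level while the nuclear mRNA was far below its own. Its total and nuclear slopes were -0.48 ± 0.08 and -0.55 ± 0.11, its cytosolic and membrane slopes -0.76 ± 0.06 and -0.81 ± 0.05, with adjusted p of at most 0.00072.

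Rps28, a small subunit protein near the exit of the mRNA channel (chr17:33819027-33824562, minus strand), fell later. Its nuclear ratios were 0.409, 0.768 and 0.826 at 30 min and 0.0597, 0.0783 and 0.0616 at 240 min, and its cytosolic ratios 0.892, 1.06 and 0.947 and then 0.397, 0.457 and 0.429. The nuclear slope of -0.94 ± 0.09 was steeper than the cytosolic slope of -0.36 ± 0.03, as tested below.

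Rpl28 (chr7:4792874-4795066, plus strand), Rps25, a protein that some viral RNAs need to start translation (chr9:44407139-44410427, plus), and Rpl13a, which is also part of a complex that silences mRNAs after interferon-gamma (chr7:45125558-45128761, minus), fell less. At 240 min in total RNA Rpl28 was at 0.354, 0.385 and 0.359, Rps25 at 0.437, 0.585 and 0.470, and Rpl13a at 0.660, 0.664 and 0.638. The 3 values of each lay below those at 30 min, the highest at 240 min being 0.385 against a lowest of 0.642 at 30 min for Rpl28. Total slopes were -0.39 ± 0.05, -0.27 ± 0.04 and -0.14 ± 0.03. Of the 24 calls of these 6 members in the 4 fractions, none was lost when a replicate was left out, but the slope of Rpl13a turned positive in each fraction when libraries were centred on the median gene (0.09 for total, 0.11 for nuclear, 0.13 for cytosolic and 0.11 for membrane RNA) and in the cytosol also with the mitochondrial scaling (0.01). Centred on the median gene, Rps25 lost its 4 calls (slopes -0.04 to -0.02) and Rpl28 its nuclear call (-0.17). With the mitochondrial scaling the nuclear calls of Rps25 (-0.15), Rpl28 (-0.29), Rpl18 (-0.35) and Rpl13a (-0.01) and the cytosolic calls of Rps28 (-0.20), Rpl28 (-0.28) and Rps25 (-0.16) were lost. Over 30, 60 and 120 min alone Rpl28 lost its nuclear (-0.01), cytosolic (-0.23) and membrane (-0.31) calls and Rpl18 its nuclear call (-0.59). The replicate spread of Rpl13a in total RNA was small (SD 0.0591 on the log2 scale, against a median of 0.147 over the members).

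**Figure D3:**
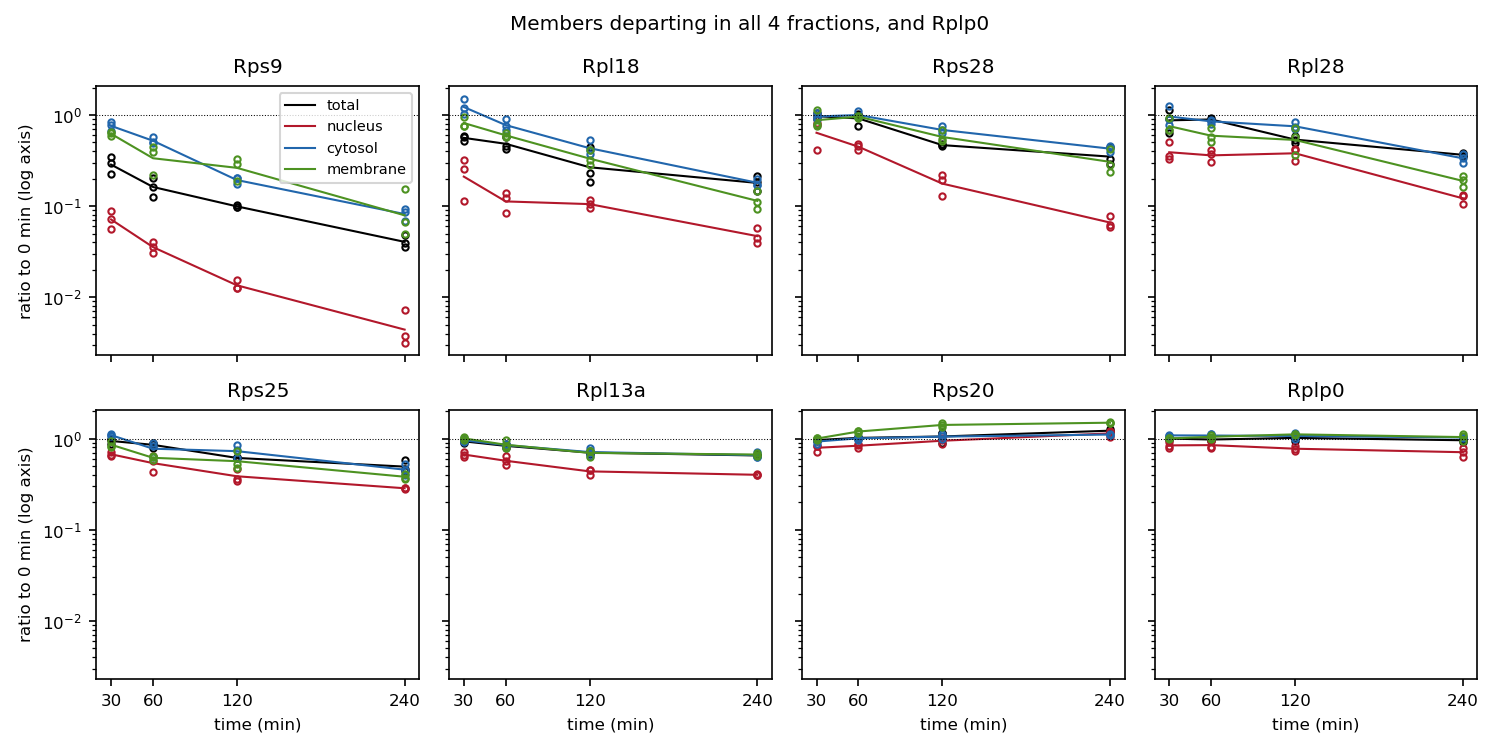
Ratio to 0 min on a log axis against time (min) for the 6 members below the median member in every fraction, for Rps20, which was above it, and for Rplp0 as a stable member. Circles are single libraries and lines geometric means, and the nucleus (red) lies lowest for Rps9, which ended at a geometric mean of 0.00442.

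Rps20, a small subunit protein, was the member that rose in each fraction. Its ratios went from 0.958, 0.998 and 0.939 at 30 min to 1.26, 1.18 and 1.23 at 240 min in total RNA, and from 1.01, 1.02 and 0.973 to 1.53, 1.49 and 1.47 in the membrane fraction. Its nuclear ratios began below the start, at 0.841, 0.823 and 0.723, and ended at 1.18, 1.04 and 1.22. The times did not overlap in these fractions. Slopes were 0.09 ± 0.03 for total RNA (limma adjusted p = 0.014), 0.15 ± 0.03 for nuclear RNA (0.00131), 0.06 ± 0.02 for cytosolic RNA (0.016) and 0.15 ± 0.03 for membrane RNA (0.00162). The membrane call held when each replicate was left out, while the total call was lost without replicate 2 (slope 0.11) or 3 (0.09), the nuclear call without 3 (0.13) and the cytosolic call without 1 (0.05) or 3 (0.06). With the mitochondrial scaling the slope in total RNA was -0.01, and the membrane (0.009) and cytosolic (0.22) calls were lost. Over 30, 60 and 120 min alone the total (0.08), nuclear (0.17) and cytosolic (0.11) calls were lost.

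The other rises were found in fewer fractions. Rpl3l, the paralogue of Rpl3 used in striated muscle, rose in total RNA, from 0.464, 0.822 and 0.983 to 1.3, 1.53 and 1.06 (slope 0.25 ± 0.09, adjusted p = 0.0338), and in the cytosol (0.17 ± 0.06), and its total call was lost without replicate 1 (slope 0.15) or 2 (0.27), its cytosolic call likewise (0.16 and 0.20). In the nucleus Rps4x, Rpl35, Rpl4, Rpl7 and Rpl17 had slopes from 0.09 (Rpl7 and Rpl17) to 0.13 (Rps4x), and each of these calls was lost without replicate 2 and also without replicate 3 (slopes 0.07 to 0.15), those of Rpl35, Rpl4 and Rpl17 also without replicate 1 (0.11, 0.11 and 0.09). Each was also lost over 30, 60 and 120 min alone, where Rps4x was at 0.01, Rpl35 at 0.07, Rpl4 at 0.06, Rpl7 at 0.002 and Rpl17 at 0.08. Rps4x, encoded on the X chromosome, stood above its start in all nuclear libraries, with 1.57, 1.72 and 1.83 at 240 min, while in total RNA it was at 1.09, 0.983 and 1.06. In the cytosol Rpl3, which lies near the peptidyl transferase centre (slope 0.09 ± 0.03), Rpl39, which lines the exit tunnel (0.08 ± 0.02), and Rpl12 (0.07 ± 0.03) rose, and in the membrane fraction Rpl12 (0.11 ± 0.03) and Rpl21 (0.14 ± 0.04). The cytosolic call was lost for Rpl3 without replicate 2 or 3 (0.08 and 0.07), for Rpl39 without 3 (0.07) and for Rpl12 without any of the 3 (0.06 to 0.07), and the membrane call of Rpl12 without 1 (0.09) or 2 (0.11). Over 30, 60 and 120 min alone the cytosolic calls of Rpl3 (0.10), Rpl39 (0.09) and Rpl12 (0.08) were lost. So were the membrane calls of Rpl12 (0.18) and Rpl21 (0.17) and the total (0.51) and cytosolic (0.06) calls of Rpl3l.

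Rpl21 moved in opposite directions. In the nucleus it was at 0.434, 0.507 and 0.287 at 30 min, at 0.314, 0.329 and 0.430 at 120 min and at 1.12, 0.790 and 0.899 at 240 min, a late return to near the start. In the cytosol it was at 0.857, 1.16 and 1.17 at 30 min and 0.886, 0.899 and 0.699 at 240 min, where the times overlapped. The nuclear slope was 0.40 ± 0.09 (adjusted p = 0.0017) and the cytosolic slope -0.11 ± 0.03 (0.0148). The nuclear rise rested on the last time point, since over 30, 60 and 120 min alone the slope was -0.08, and the cytosolic call was lost without replicate 2 (-0.11) or 3 (-0.07) and turned to 0.17 when centred on the median gene. Words of 75 bases of its coding transcripts were also found in 61 other annotated genes.

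A slope from 30 min on misses mRNA that was lost earlier, so members below 0.5 in all 3 libraries of a time were also counted, a measure chosen after the data were seen. In total RNA they were 4 of 67 at 30 min (Rps13, Rpl9, Rps9 and Rpl32), beside 3.13% of all genes, and 9 of 67 at 240 min, beside 41.4%. In the cytosol 1 of 66 was below at 30 min (Rps13, beside 1.47% of genes) and 8 of 66 at 240 min (40.3%). In the membrane fraction 2 of 65 were below at 30 min (Rpl32 and Rps13, 2.37%) and 11 of 66 at 240 min (40.0%). In the nucleus the counts were 13 of 66 at 30 min, beside 6.85% of all genes, and 23 of 67 at 240 min, beside 54.0%. The members were thus above the share of all genes at the earliest time in the nucleus and below it at the last.

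Rps13, a small subunit protein, was the lowest member in total RNA at 30 min, at 0.174, 0.0137 and 0.0123, and was at 0.0975, 0.0766 and 0.0619 at 240 min. It was below 0.5 at 30 min in every fraction, and neither of its slopes that could be fitted was called (0.42 ± 0.21 in total RNA, adjusted p = 0.105, and -0.10 ± 0.15 in nuclear RNA). Rpl9 stood at 0.155, 0.0459 and 0.0824 in total RNA at 30 min and at 0.0582, 0.0542 and 0.0520 in the nucleus at 240 min, with a nuclear slope of 0.06 ± 0.09. Both were thus low from the first time on, and none of their fitted slopes passed the test.

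Rpl34 was at 0.0506, 0.0796 and 0.0544 in the nucleus at 30 min, but at 0.867, 0.583 and 0.917 in the cytosol. Rpl32, a long-used reference gene, was at 0.116, 0.384 and 0.268 in the nucleus and 0.789, 0.546 and 0.985 in the cytosol at that time, and it fell in the cytosol (slope -0.65 ± 0.15) and nucleus (-0.57 ± 0.14) while its slope of -0.26 ± 0.13 in total RNA did not pass the test. Its membrane slope of -0.45 ± 0.18 passed, but not without replicate 1 (-0.50) or 3 (-0.19), and the nuclear slope of Rpl34 (-0.33 ± 0.11, adjusted p = 0.017) was lost without any of the 3 replicates (-0.35 to -0.28). Rps14, whose loss on a single allele underlies a human anaemia, was at 0.132, 0.234 and 0.181 in the nucleus at 30 min and at 0.675, 0.488 and 0.477 in total RNA, and none of its slopes passed the test.

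Some members were under a ratio of 0.5 in nuclear RNA alone. At 240 min, 11 of 67 members were below 0.5 in all 3 libraries of the nucleus and of no other fraction, beside 16.3% of all genes, so their share was near that of all genes. Among them were Rpl10a, Rpl12, Rpl13a, Rplp2, Rps12, Rps14, Rps21, Rps27, Rps27a and Rpsa. All 9 members low in total RNA at that time were also low in the nucleus, which is 39.1% of the 23 low there. This overlap was not counted over all genes, of which 41.4% were low in total RNA and 54.0% in the nucleus, so it is no trait of the members.

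Rpl12, a protein of the stalk base that helps bind elongation factors, was 1 of these. Its nuclear ratios were 0.228, 0.216 and 0.238 at 30 min, 0.244, 0.215 and 0.198 at 60 min, 0.195, 0.199 and 0.181 at 120 min and 0.202, 0.199 and 0.166 at 240 min. In the cytosol it was at 0.963, 1.01 and 0.920 at 30 min and at 1.08, 1.20 and 1.11 at 240 min. The nuclear level was thus low at the first time point, and its slope of -0.08 did not pass the test. Rps21 was at 0.143, 0.127 and 0.166 in the nucleus at 30 min and at 0.686, 0.770 and 1.10 in the cytosol. Rps12 was at 0.0555, 0.0748 and 0.133 in the nucleus and at 0.853, 0.614 and 0.406 in the cytosol. These low values at 30 min were not tested against the start, since the libraries of a fraction share their 0 min denominator. Low nuclear ratios cannot be told apart from a high nuclear 0 min value.

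The difference in slope between fractions was tested directly. Against the cytosol, 4 of the 63 members fitted in both fractions had a lower slope in the nucleus and 8 a higher one, where 8.30% and 12.3% of all genes did, so the members' counts were near the share of all genes. Lower in the nucleus were Rps28 (difference -0.58 ± 0.09 per hour, limma adjusted p = 0.000163), Rpsa (-0.31 ± 0.08, 0.0129), Rpl12 (-0.14 ± 0.04, 0.0243) and Rpl39 (-0.12 ± 0.04, 0.0395). Among those higher were Rpl21 (0.50 ± 0.10, 0.00114), Rpl31 (0.19 ± 0.05, 0.0087), Rpl35 (0.15 ± 0.05, 0.0497), Rpl15 (0.14 ± 0.05, 0.0397), Rpl17 (0.11 ± 0.03, 0.0193), Rps4x and Rpl6. Against the cytosol the membrane fraction differed for Rpl21 only, which was higher (0.25 ± 0.05, adjusted p = 0.00327), beside 4.94% of all genes higher and 1.76% lower.

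Rpsa, which is also known as a laminin receptor, was at 0.507, 0.740 and 0.547 in the nucleus at 30 min and at 0.230, 0.187 and 0.165 at 240 min, and in the cytosol at 1.19, 1.21 and 0.938 and then 0.895, 0.851 and 0.930. Rpl31, which sits at the exit of the peptide tunnel, was at 0.681, 0.676 and 0.509 and then 0.736, 0.675 and 0.848 in the nucleus, and at 0.792, 0.993 and 1.02 and then 0.771, 0.774 and 0.756 in the cytosol. Of the 12 differences between nucleus and cytosol, that of Rps28 was called without each replicate in turn. The total count fell to 6, 3 and 1 without replicates 1, 2 and 3, and it was 6 when centred on the median gene and 0 with the mitochondrial scaling, where limma gave 2 members an unadjusted p under 0.05. With that scaling only 12 of 11232 genes were lower in the nucleus and 3 higher, so the 0 is no trait of the members. The difference of Rpsa was lost without replicate 2 (-0.29) or 3 (-0.24), that of Rpl21 without 3 (0.41) and over 30, 60 and 120 min alone (0.002), and that of Rpl31 without 3 (0.13). The differences of Rpl15 (0.14 and 0.08) and Rps4x (0.09 and 0.09) were lost without replicate 2 or 3. Those of Rpl12 (-0.16 to -0.11), Rpl39 (-0.14 to -0.10), Rpl35 (0.11 to 0.17) and Rpl17 (0.10 to 0.13) were lost whichever replicate was left out. The membrane difference of Rpl21 was lost without replicate 2 (0.27) or 3 (0.20).

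**Figure D4:**
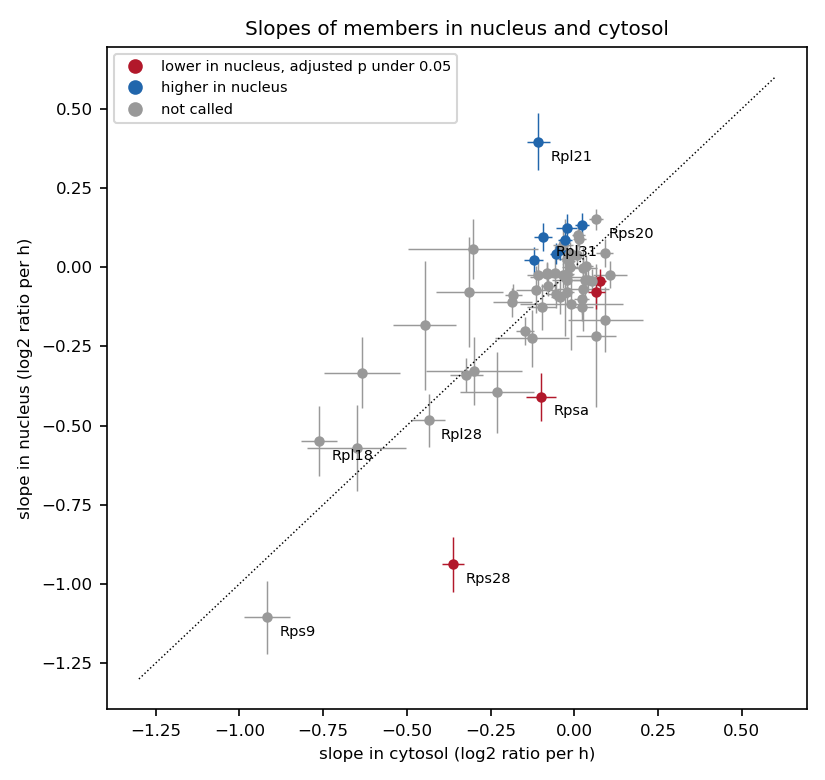
Slope of the log2 ratio per hour in the nucleus against that in the cytosol for members fitted in both, with standard errors and a dotted line of equality. Rps28, with a nuclear slope of -0.94 and a cytosolic slope of -0.36, and Rpl21, at 0.40 and -0.11, lie farthest from the line among the members called.

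Among members that departed in 2 or 3 fractions, the declines lay mostly outside total RNA. Rpl27 fell in the cytosol, from 2.41, 1.49 and 1.78 at 30 min to lower values (slope -0.63 ± 0.11), and in the membrane fraction (-0.56 ± 0.13), while in total RNA its slope was -0.11 ± 0.12. Rpl30 fell in the cytosol (-0.45 ± 0.09) from 2.89, 1.87 and 1.14 at 30 min, and in the membrane fraction (-0.51 ± 0.11), with a total slope of -0.18 ± 0.15. These 2 mRNAs therefore stood above their start in all cytosolic libraries at 30 min. The nuclear call of Rpl27 (-0.33) was lost without replicate 2 (-0.32) or 3 (-0.30).

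Rps27a, made as a fusion with ubiquitin, fell in the membrane fraction (-0.38 ± 0.07) and cytosol (-0.31 ± 0.10, lost without replicate 1, at -0.22), and Rps15a fell in total RNA (-0.48 ± 0.17, lost without replicate 2 or 3, at -0.35 and -0.45) and the nucleus (-0.65 ± 0.17). Rps15a was not fitted in the cytosol and membrane fraction, since it was not listed in all libraries there. Rps3, a small subunit protein with a role in DNA repair, had a small fall in total RNA (-0.07 ± 0.02, adjusted p = 0.0284), from 1.11, 1.04 and 1.08 to 0.923, 0.879 and 0.902. The fall of Rps3 was lost without any of the replicates (-0.07 each time) and became a slope of 0.16 when centred on the median gene.

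Paralogue pairs can be set side by side, without a test of their difference. Rpl3l was at 1.3, 1.53 and 1.06 in total RNA at 240 min, and Rpl3 at 1.05, 0.995 and 1.05, so the replicates of both were near or above 1. Rpl39 was at 1.00, 0.961 and 0.908, and Rpl39l, a paralogue used in male germ cells, at 0.669, 0.468 and 0.566, with a slope of -0.16 ± 0.11 that did not pass the test (adjusted p = 0.245). Rpl10l, the intronless paralogue of Rpl10 known from the testis, fell in the membrane fraction from 0.885, 0.913 and 0.846 to 0.474, 0.504 and 0.518 (slope -0.20 ± 0.05) and in the cytosol from 0.941, 0.872 and 1.00 to 0.630, 0.621 and 0.545 (-0.18 ± 0.03). With libraries centred on the median gene both slopes turned positive (0.06 and 0.10), and its nuclear call (-0.09 ± 0.03) was lost without any replicate (-0.11 to -0.07). Its partner Rpl10 was no member, being listed in 6 of 12 total libraries.

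Rpl6l, Rpl32l and Rps4l are annotated as pseudogenes without a coding transcript, and their nuclear ratios were above 1 in all 12 libraries. Rpl32l was at 4.88, 3.60 and 3.91 in the nucleus at 60 min and at 1.17, 1.22 and 1.17 in the cytosol at 30 min. Rpl6l was at 2.00, 1.68 and 1.86 in the nucleus at 240 min, and Rps4l at 2.33, 1.60 and 1.15 at 30 min. Of these 3 genes, Rps4l had a call in 1 of the 4 fractions, a fall in the membrane fraction (-0.27 ± 0.09) that was lost without replicate 2 (-0.20) or 3 (-0.28).

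Several members with well-known roles stayed near their start. Of the stalk that recruits elongation factors, Rplp0 was at 0.988, 0.969 and 0.927 and Rplp1 at 1.04, 1.05 and 1.03 in total RNA at 240 min, with slopes of -0.01 ± 0.02 and 0.02 ± 0.03. Their partner Rplp2 was at 0.598, 0.470 and 1.62, with replicates far apart, and none of its slopes passed the test. Rps6, the target of S6 kinases, was at 0.925, 0.864 and 0.890, and Rpl5 and Rpl11, which bind 5S ribosomal RNA and, when free, the p53 regulator Mdm2, were at 1.06, 0.998 and 1.04 and at 1.03, 1.00 and 1.03. No slope of these 4 mRNAs (Rplp0, Rps6, Rpl5 and Rpl11) passed the test in any fraction.

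The members can also be set against a feature that the rule did not use, the number of coding transcripts annotated for the gene (GENCODE vM21). Of the 19 members below the median member in at least 1 fraction, 16 had at least 2 coding transcripts, 2 had 1 and 1 had none (the pseudogene Rps4l). Of the 17 above it in at least 1 fraction, 11 had 1. Among all 67 members 27 had 1 coding transcript, 12 had 2, 25 had 3 or more and 3 had none. In the nucleus the median slope was -0.02 for the 27 members with 1 coding transcript, -0.04 for the 12 with 2 and -0.18 for the 23 with 3 or more. Over other genes the medians were -0.30, -0.30 and -0.32, so the medians of the members spread over the bins and those of other genes hardly did. The 6 members below in every fraction had between 3 and 8 coding transcripts. With departures measured from the members with 1 coding transcript, 10 members departed in total RNA, 20 in nuclear, 26 in cytosolic and 18 in membrane RNA.

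Replicate spread moved with the same feature. The SD between replicates on the log2 scale had a median of 0.110 in total RNA for members with 1 coding transcript and of 0.259 for those with 3 or more, and of 0.119 and 0.327 in the nucleus. Over other genes the values were 0.207 and 0.272 in total RNA and 0.272 and 0.316 in the nucleus. Among members the SD in total RNA ran from 0.0376 (Rps16) to 1.25 (Rpl34). The authors' software divides reads between the transcripts and genes they fit, and the part of this step in the low or variable values of members with many transcripts was not tested.

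**Figure D5:**
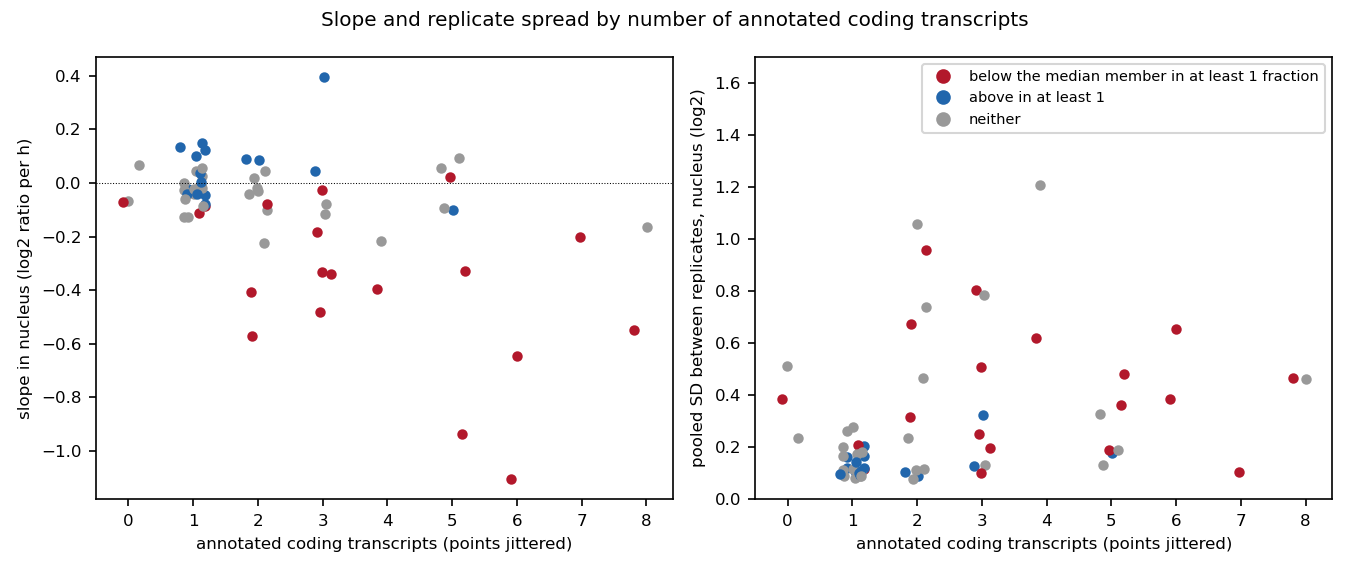
Slope in the nucleus (left, log2 ratio per hour) and pooled SD between replicates in the nucleus (right, log2) against the number of annotated coding transcripts for each member. Members with 1 coding transcript lie near a slope of 0 (median -0.02) with a small SD (median 0.119), and those below the median member (red) lie mostly at higher numbers.

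Sequence shared with other annotated genes was counted as well. Of the 64 members with a coding transcript, 3 (Rps3, Rpl3l and Rpl39l) shared no word of 75 bases with any other annotated gene, and 15 shared over 50% of their words. The 6 members below in every fraction shared between 9.81% (Rps9) and 36.4% (Rpl13a). The median was 20.5% for 26 members that were below the median member or low at 30 min in any fraction, and 40.2% for the other 38. The stable Rps6 shared 84.1%, and reads of such genes cannot be assigned with certainty.

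The 17 matching symbols that are no members included 2, Rpl22 and Rpl38, that were listed in no library. A further 2, Rpl19 among them, were listed in no total library, and the other 13 in 1 to 11 of 12. Where listed, some were low, such as Rps19, a gene mutated in Diamond-Blackfan anaemia, at 0.0832, 0.105 and 0.0723 in total RNA at 240 min. Each of the 17 had at least 2 annotated coding transcripts, 14 of them 3 or more, beside 25 of the 67 members with 3 or more. A gene that is not listed can be at 0 or have no value for another reason, and this is no sign that the mRNA was absent.

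Other genes of the translation machinery can be set beside the members. Of 18 fitted translation genes with a known oligopyrimidine start, such as elongation factors, 4 fell in total RNA (Eif4b, Naca, Nap1l1 and Npm1) and none rose, with a median slope of -0.02. The counts were 6 of 18 for nuclear, 9 of 17 for cytosolic and 7 of 17 for membrane RNA. Ribosome assembly factors had a median slope of -0.25 in total RNA, and 28 of 33 fell, beside 56.9% of all genes. In cytosolic and membrane RNA 33 of 33 of them fell (medians -0.35 and -0.32), beside 67.1% and 62.2%. Mitochondrial ribosomal protein genes had a median slope of -0.23, and 44 of 64 fell. The median slope of all genes in total RNA was -0.22 and that of the members 0.01.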

How the data were processed

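Polyadenylated RNA was measured in 48 libraries (4 fractions, 4 times, 3 replicates), with groups and replicate numbers taken from the sample titles. The authors aligned reads with STAR 2.7.6 and counted them with RSEM 1.3.3 (mm10, per the submitters' processing notes), scaled libraries on genes with known half-lives over 14 h and divided by the 0 min level, so the deposited values are ratios. Genes at 0 are not listed, and no depth is given. The last time is 240 min in the titles and 180 min in the protocol text. Two-sided limma 3.58.1 (R 4.3.3, eBayes with trend, Benjamini-Hochberg over all genes fitted) was run on the log2 ratio, with no pseudocount, for genes present in each of the 12 libraries of a fraction, or of the 24 for differences between fractions. Python 3.11.15 was used for descriptions.

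In simulated total RNA libraries (12762 genes, 200 changed) slopes of 0.5 per hour were recovered in 71% and of 0.25 in 28% of cases. There were 5 false calls. In the data far more genes were called in total RNA, 7262 falling and 432 rising of 12762. Recovery and false calls with that many changed genes were not tested, so these values do not describe the calls reported here. Alternatives covered library scaling, gene filter, pseudocount, replicate block, trend, times and replicates. Correlations between the deviations of same-numbered libraries ranged from -0.0959 to 0.273. In total RNA 3 of 6 correlations of replicate 1 were over 0.1. These values cannot decide whether the numbers pair the samples, and the main fits did not treat them as pairs. By the authors' methods the fractions were made from the same harvested cells, and the test between fractions took their libraries as independent. P-values of slopes rest on the spread of the libraries around a straight line in time. That spread mixes differences between separately passaged cultures of 1 cell line with departures from the straight line. The 12 libraries of a fraction were taken as independent, while the authors describe 3 separately passaged replicates. Positions are from GENCODE vM21 (GRCm38).

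Members were named if called (all where at most 10 were called in a direction and fraction, otherwise the 5 steepest), if departing in at least 2 fractions (the 15 with the largest mean departure), if differing between fractions (5 per direction), as paralogue pairs, as stalk, Rps6, Rpl5, Rpl11 and Rpsa, or if not fitted in a fraction. Members named outside these choices (Rpl10a, Rpl6, Rps12, Rps14, Rps16, Rps21, Rps27, Rpl6l, Rpl32l) were chosen after their values were seen. Some genes are not reported by name here. The members and lists were chosen with earlier results of these data known.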

Additional observations from a re-analysis of the deposited data

Results flagged for a closer look

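By the interaction of time with fraction, the slope of 4 of 63 members was lower in the nucleus than in the cytosol and that of 8 was higher, beside 8.30% and 12.3% of all genes, so the counts were near the share of all genes. Of the 63 members fitted in membrane and cytosol 1 was higher in the membrane, beside 4.94% of all genes. Groups of 3 libraries are too small for a check of single outlying samples.

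Lower in the nucleus than in the cytosol were Rps28, by -0.58 per hour on the log2 scale, Rpsa (-0.31), Rpl12 (-0.14) and Rpl39 (-0.12). Higher in the nucleus were Rpl21 (0.50), Rpl31 (0.19), Rpl35 (0.15), Rpl15 (0.14), Rpl17 (0.11), Rps4x (0.11) and Rpl6 (0.10). In the membrane fraction Rpl21 was higher than in the cytosol by 0.25. The ratios of a fraction refer to the 0 min level of that fraction, and the part of this reference in these differences was not tested beyond the alternatives given below.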

How the results depend on the processing

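Among 22 summary results, the fit without trend and a pseudocount of 0.1 kept all 22 within their limits, centring departures on the own subunit or on members with 1 coding transcript kept 4 of 4, and leaving out the lowest nuclear library (30 min, replicate 1) kept 6 of 6, with 18 members falling and 24 departing in nuclear RNA. Leaving out the pseudogenes and centring on members with 1 coding transcript were chosen after seeing the data. Of 75 calls on named members, 57, 46 and 45 were kept without replicates 1, 2 and 3, each of which leaves 8 of 12 libraries.

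Centred on the median gene, falling and rising members numbered 4 and 48 in total RNA, 3 and 45 in the nucleus, 6 and 49 in cytosol and 4 and 44 in membrane, with median slopes of 0.240, 0.273, 0.247 and 0.231. Differences then numbered 6 for nucleus and 2 for membrane against cytosol. Over all genes 1132 were lower and 1919 higher in the nucleus, and 294 and 468 in the membrane fraction. Scaled to mRNAs of mitochondrial DNA, falling and rising members numbered 15 and 0, 2 and 4, 4 and 2, and 46 and 0, with median slopes of -0.0937, 0.152, 0.125 and -0.169, and 0 and 20 differences. Over all genes 12 were then lower and 3 higher in the nucleus, and 2269 and 7 in the membrane fraction. Falls and rises over all genes are given above. At an unadjusted limma p under 0.05 the counts of 0 became 0 (total), 0 (membrane) and 2 (differences). Both centrings subtract another reference from each library.

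With 30, 60 and 120 min only, which leaves 9 libraries, 0 members rose in total RNA, 6 fell and 1 rose in the nucleus, 8 fell and 0 rose in cytosol and 1 rose in membrane, and at an unadjusted limma p under 0.05 both counts of 0 stayed at 0. Departing members were 7 (nucleus) and 8 (cytosol), and 2 members differed between nucleus and cytosol. Large minus small subunit was then 0.0401 (total), -0.0213 (cytosol) and -0.0435 (membrane), and the median slope -0.0334 (total) and -0.0780 (nucleus). With the last time at 180 min the median slope was -0.0657 (nucleus) and -0.0529 (cytosol), and large minus small subunit 0.0333 (cytosol). For 240 against 30 min, 3 members rose in the cytosol and 2 differed between membrane and cytosol. With genes listed in all 48 libraries, 1 rose in total RNA and 2 differed between membrane and cytosol. The cytosolic median slope was -0.0431 with genes in at least 9 libraries and -0.0387 without pseudogenes. For these settings the cause was not tested.

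With the replicate number as a block, 7 members differed between nucleus and cytosol instead of 12, 69 of 75 calls on named members were kept (lost were the nuclear slopes of Rpl7, Rpl17 and Rpl10l and the nuclear differences of Rpl15, Rps4x and Rpl35), and no other summary result moved. Correlations between same-numbered libraries ranged from -0.0959 to 0.273, which neither shows nor excludes that equal numbers mark the same culture. By the authors' methods the fractions were made from the same harvested cells, and the main test between fractions did not use this.

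Without 1 replicate, falling members ranged from 6 to 8 (total), 9 to 11 (nucleus), 12 to 19 (cytosol) and 11 to 14 (membrane). Rising members ranged from 0 to 3, 1 to 4, 1 to 2 and 2 to 3, and departing members from 6 to 10, 11 to 16, 16 to 21 and 14 to 14. Large minus small subunit ranged from 0.00502 to 0.0339, 0.0188 to 0.0834, -0.00805 to 0.0286 and -0.0244 to -0.00629. Median slopes ranged from -0.00115 to 0.0189, -0.0496 to -0.0370, -0.0539 to -0.0409 and -0.0522 to -0.00603. Differences ranged from 1 to 6 (nucleus against cytosol) and 0 to 1 (membrane against cytosol). At an unadjusted limma p under 0.05 the 0 in total RNA became 1 rising member, and the 0 differences became 3 and 6 without replicates 2 and 3.

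Some named slopes changed sign. Centred on the median gene these were Rps3 (0.16) and Rpl13a (0.0893) in total RNA, Rpl10l (0.23) and Rpl13a (0.11) in the nucleus, Rpl15 (0.16), Rpl21 (0.17), Rpl10l (0.10), Rpl31 (0.19) and Rpl13a (0.13) in the cytosol, and Rpl10l (0.0631) and Rpl13a (0.11) in membrane. With the mitochondrial scaling they were Rps20 in total RNA (-0.0112), Rpl10l in the nucleus (0.11), Rpl15 (0.0381), Rpl21 (0.0518), Rpl31 (0.0659) and Rpl13a (0.0127) in the cytosol, Rpl12 in membrane (-0.0285) and the membrane difference of Rpl21 (-0.0414). Over the first 3 times they were Rpl21 in the nucleus (-0.0752), Rps27a in the cytosol (0.0442) and the nuclear difference of Rps4x (-0.0491). The cause was not tested.

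The files give no depth, so a ratio near 0 cannot be set against a counting limit.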
